A study of Blattella germanica with 16 samples.

Results

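The genes described here encode 6 enzymes of glycolysis in the fat body of the German cockroach, Blattella germanica. They were chosen by symbol (Hex-t2_1, Pgi, Pgk, ENO_1 and PyK_0) or by a product name with triosephosphate isomerase, which added Tpi. A search for fructose-bisphosphate aldolase matched 0 rows, and that step was not analysed here. The 6 genes come from a table of 28676 genes, of which 10536, all 6 included, had enough reads to be tested.

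Glycolysis is the pathway by which cells break glucose down to pyruvate, gaining ATP, NADH and carbon skeletons. The fat body is the insect tissue that takes the metabolic roles of vertebrate liver and adipose tissue, where glycolytic intermediates also feed the pentose phosphate pathway, lipid synthesis and the making of trehalose, the sugar of insect blood. Insulin signalling is known in many animals as a regulator of sugar use, and the series asks how far the cockroach's 3 insulin receptors can replace each other.

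Polyadenylated RNA of fat body from females was sequenced after injection of double-stranded RNA (dsRNA), which triggers RNA interference against a matching transcript. There were 4 groups of 4 libraries: dsInR1, dsInR2 and dsInR3, each injected with dsRNA named for 1 insulin receptor, and dsMock, injected with a control dsRNA. All females, dsMock included, received 2 µg of dsRNA per injection in 2 injections 7 days apart and were kept at 30 °C and 70% humidity. By the series design the first injection fell on day 1 of ootheca transport, the ootheca was taken away on day 12 and fat body was dissected on day 5 of the second reproductive cycle, while the treatment protocol counts 12 and 5 days from each injection to extraction, and the difference could not be settled here. In the table the control columns are labelled by polyhedrin dsRNA and were read as dsMock, since no other group was left. Columns could be tied to groups but not to single samples, so libraries go by the numbers in the column names. The labels do not give the number of animals behind a library, so the tests describe the spread between these samples, which may be technical.

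Libraries held 15.3 to 23.7 M counted reads. The annotation names 1 insulin receptor gene, InR, without saying which of the 3 it is. It had 46.2 to 51.4 CPM (reads per gene after scaling for library size) in dsInR1, 3.42 to 7.90 CPM in dsInR2, 30.4 to 46.1 CPM in dsInR3 and 50.9 to 54.6 CPM in dsMock, so depletion of the target could not be checked group by group. All 8 genes listed as fat body markers were detected, and their summed level was 49940 to 69401 CPM in dsInR1, 239114 to 367873 CPM in dsInR2, 56276 to 86949 CPM in dsInR3 and 50456 to 63516 CPM in dsMock. The most abundant gene of dsMock, C0J52_15443, which has no product name, took 54.1 to 60.9% of reads in dsInR1, 2.3e-04 to 6.99% in dsInR2, 35.1 to 56.9% in dsInR3 (35.1% in library 3, which stands apart) and 51.1 to 58.8% in dsMock. Without that gene the 6 enzymes took 0.160 to 0.223% of reads in dsInR1, 0.295 to 0.468% in dsInR2, 0.285 to 0.376% in dsInR3 and 0.167 to 0.286% in dsMock. PyK_0 weighs most in these shares, with means of 1054 CPM in dsInR3 and 679 CPM in dsMock. The next highest of the 6 had means of 150 CPM (ENO_1, dsInR3) and 110 CPM (Hex-t2_1, dsMock), so the shares do not describe each gene. In bulk tissue, fewer cells of a type and less RNA per cell cannot be told apart.

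With dsInR2, transcripts of all 6 enzymes rose against dsMock. The fitted rise was 1.996-fold for Tpi, 2.03-fold for PyK_0, 2.29-fold for Hex-t2_1, 3.42-fold for Pgi, 4.60-fold for Pgk and 4.96-fold for ENO_1. Among all genes tested in that comparison, 17.6% were called higher and 14.7% lower, at an adjusted p below 0.05 in the quasi-likelihood test of edgeR. The median log2 fold change of the 6 was 1.48, beside 0.04 over all genes tested. With dsInR3, 1 of the 6 passed the test, and it went the other way: Hex-t2_1 fell, where 0.104% of all genes were called lower and 0.199% higher. The median of the 6 there was 0.64, beside 0.00 over all genes. With dsInR1, 0 of the 6 passed, as did 0% of all genes. Libraries of dsInR2 lay clear above those of dsMock for 5 of the 6 genes (15.7% of all genes), and libraries of dsInR3 lay clear above for 3 (5.62% of all genes) and clear below for 1 (4.59%). The 3 comparisons share the 4 dsMock libraries and are therefore not independent of each other.

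**Figure D1:**
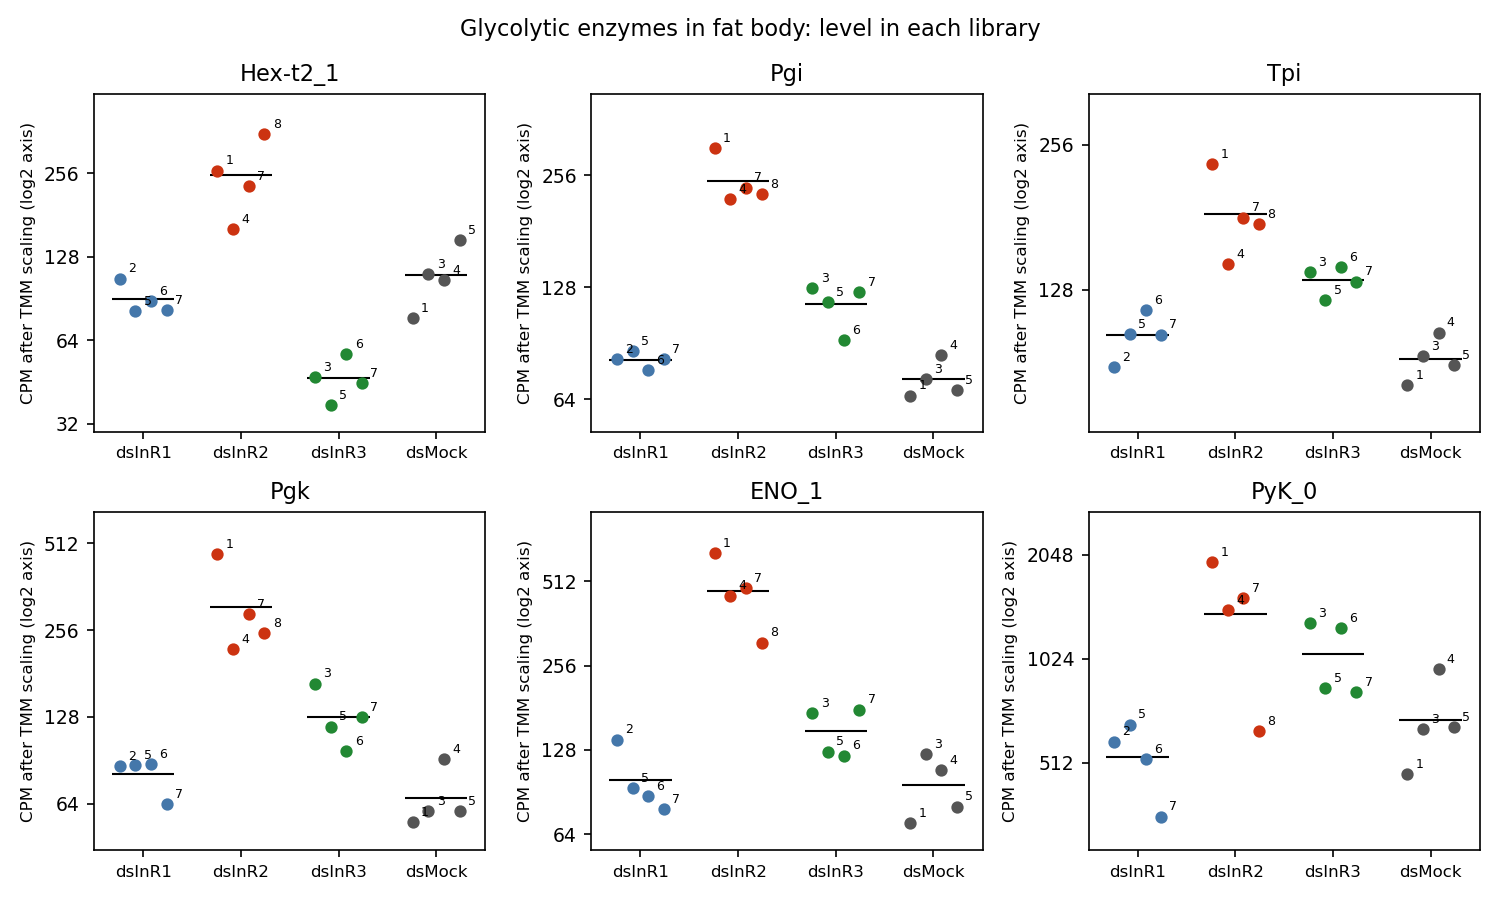
Level of each enzyme gene in each library, as CPM after TMM scaling on a log2 axis. Points are libraries with their column numbers, bars are group means, and groups run dsInR1, dsInR2, dsInR3, dsMock. Pgi lay at 221 to 304 CPM in dsInR2, above every other library, while Hex-t2_1 was lowest in dsInR3 at 37.5 to 57.0 CPM.

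Hexokinase phosphorylates glucose and so commits it to metabolism in the cell. Hex-t2_1 (C0J52_18479, hexokinase type 2) lies on contig PYGN01000927.1 from 529615 to 546683 of the assembly Bger_1.1. Libraries 2, 5, 6 and 7 of dsInR1 had 107, 81.7, 88.8 and 82.0 CPM, and libraries 1, 4, 7 and 8 of dsInR2 had 261, 161, 230.0 and 354 CPM. Libraries 3, 5, 6 and 7 of dsInR3 had 47.3, 37.5, 57.0 and 44.9 CPM, against 76.8, 110.5, 105 and 147 CPM in libraries 1, 3, 4 and 5 of dsMock. The 4 dsInR2 libraries were the highest and the 4 dsInR3 libraries the lowest of all 16, with no overlap with dsMock on either side. Mean levels were 251 ± 80.0 CPM in dsInR2 and 46.7 ± 8.07 CPM in dsInR3, beside 109.8 ± 28.8 CPM in dsMock (SD, n = 4 each). On the log2 scale, Hex-t2_1 rose by 1.20 in dsInR2 (SE 0.23, adjusted p = 0.0011) and fell in dsInR3 by 1.23 (SE 0.23, 95% interval -1.73 to -0.74, adjusted p = 0.0407), a level 2.35-fold lower than in dsMock. The fall kept its direction without any 1 library, at -1.39 to -1.06, but it no longer passed without library 3, 5 or 7 of dsInR3 (adjusted p = 0.14, 0.111 and 0.0969) or library 1, 3 or 5 of dsMock (0.0539, 0.0619 and 0.134). It also missed the threshold when scaling used library totals only (-1.06, adjusted p = 0.0809), with no filter on low counts (0.0561) and in a fit of these 2 groups alone (0.0747).

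Glucose-6-phosphate isomerase turns glucose-6-phosphate into fructose-6-phosphate. Pgi (C0J52_06841) lies on contig PYGN01000106.1 from 377756 to 415094. Its levels were 82.2, 86.4, 76.6 and 82.2 CPM in dsInR1 (libraries 2, 5, 6 and 7) and 304, 221, 237 and 228 CPM in dsInR2 (libraries 1, 4, 7 and 8). They were 128, 117, 92.4 and 124 CPM in dsInR3 (libraries 3, 5, 6 and 7), against 65.5, 72.4, 84.0 and 67.8 CPM in dsMock (libraries 1, 3, 4 and 5). Within groups its coefficient of variation was 4.89 to 15.3%, and every dsInR2 library lay above every dsInR3 library, which in turn lay above every dsMock library. The mean was 248 ± 37.9 CPM in dsInR2 and 115 ± 15.9 CPM in dsInR3, beside 72.4 ± 8.23 CPM in dsMock (SD, n = 4 each). Pgi rose in dsInR2 by 1.77 (SE 0.14, adjusted p = 1.7e-06), which put it in place 12 of all tested genes ordered by p. In dsInR3 the log2 fold change was 0.67 (SE 0.14, 95% interval 0.38 to 0.96), which just missed the threshold over all genes (adjusted p = 0.0524) and passed it under 5 of 8 other settings, among them DESeq2 (1.4e-04). An exact two-sided permutation test of the log2 CPM of this 1 gene gave p = 0.0286 for both dsInR2 and dsInR3 against dsMock, the smallest that 4 against 4 allows, or 0.0343 adjusted over the 6 pairs of groups. Neither value is adjusted over genes. This p only restates that the libraries did not overlap, as those of 15.7% of all genes did not upward in dsInR2 and 5.62% in dsInR3. For dsInR1 against dsMock the exact p was 0.114, with a difference of 0.18 on the log2 scale.

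Triosephosphate isomerase interconverts the pair of triose phosphates made by aldolase. Tpi (C0J52_11437) lies on contig PYGN01001178.1 from 362429 to 372643. It had 88.3, 104, 116 and 103 CPM in dsInR1 and 233, 145, 181 and 175 CPM in dsInR2, in the same order of libraries. In dsInR3 it had 139, 122, 143 and 133 CPM, against 81.2, 93.0, 104 and 89.3 CPM in dsMock. All dsInR2 and all dsInR3 libraries lay above all dsMock libraries. Tpi rose in dsInR2 by 0.997 (SE 0.14, adjusted p = 1.4e-04), the smallest of the 6 fitted changes. In dsInR3 the change was 0.55 (SE 0.14, 95% interval 0.24 to 0.85, adjusted p = 0.0907), which did not pass in edgeR and passed in DESeq2 (0.0102).

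Phosphoglycerate kinase makes the first ATP of the pathway's payoff steps. Pgk (C0J52_19027) lies on contig PYGN01001459.1 from 296146 to 309950. Levels were 86.2, 87.0, 88.1 and 64.0 CPM in dsInR1 and 469, 220.1, 291 and 250.2 CPM in dsInR2. In dsInR3 they were 167, 118, 97.5 and 128 CPM, against 55.3, 60.6, 91.4 and 60.4 CPM in dsMock. The dsInR2 libraries lay above all others, and the lowest dsInR3 library, at 97.5 CPM, was just above the highest dsMock library. Pgk rose in dsInR2 by 2.20 (SE 0.25, adjusted p = 2.2e-05). Its change in dsInR3 was 0.93 (SE 0.24, 95% interval 0.42 to 1.45, adjusted p = 0.0883), which passed in DESeq2 only (0.0087) among 8 other settings.

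Enolase makes phosphoenolpyruvate, the substrate of the last step. ENO_1 (C0J52_08531) lies on contig PYGN01000167.1 from 448894 to 460791. It had 139, 93.4, 87.7 and 78.5 CPM in dsInR1 and 647, 455, 484 and 309 CPM in dsInR2. The dsInR3 libraries had 173, 126, 122 and 178 CPM, against 70.1, 123, 108 and 80.2 CPM in dsMock. Only in dsInR2 were the libraries clear of dsMock, since the lowest dsInR3 library, at 122 CPM, fell just below the highest dsMock library. ENO_1 rose in dsInR2 by 2.31 (SE 0.26, adjusted p = 2.1e-05), the largest of the 6 fitted changes. Its change in dsInR3 was 0.65 (SE 0.25, 95% interval 0.12 to 1.18, adjusted p = 0.234).

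Pyruvate kinase makes pyruvate and ATP in the final step of glycolysis. PyK_0 (C0J52_17189) lies on contig PYGN01001136.1 from 739632 to 759950 and had the most reads of the 6, 6660 to 42207 per library. Levels were 589, 659.7, 524 and 357 CPM in dsInR1 and 1946, 1416, 1537 and 630.1 CPM in dsInR2. In dsInR3 they were 1299, 842, 1253 and 821 CPM, against 473, 640.5, 954 and 649 CPM in dsMock. The groups overlapped: library 8 of dsInR2, at 630.1 CPM, lay inside the dsMock range and far below the other dsInR2 libraries. PyK_0 rose in dsInR2 by 1.02 (SE 0.32, adjusted p = 0.0215), the least certain of the 6. The call was lost without library 1 of dsInR2 (0.82, adjusted p = 0.071), without library 1, 3 or 5 of dsMock (0.83, 0.999 and 1.004, adjusted p = 0.0852, 0.052 and 0.052) and in a fit of the 2 groups alone (adjusted p = 0.0663). In dsInR3 the change was 0.63 (SE 0.31, 95% interval -0.04 to 1.30, adjusted p = 0.372).

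**Figure D2:**
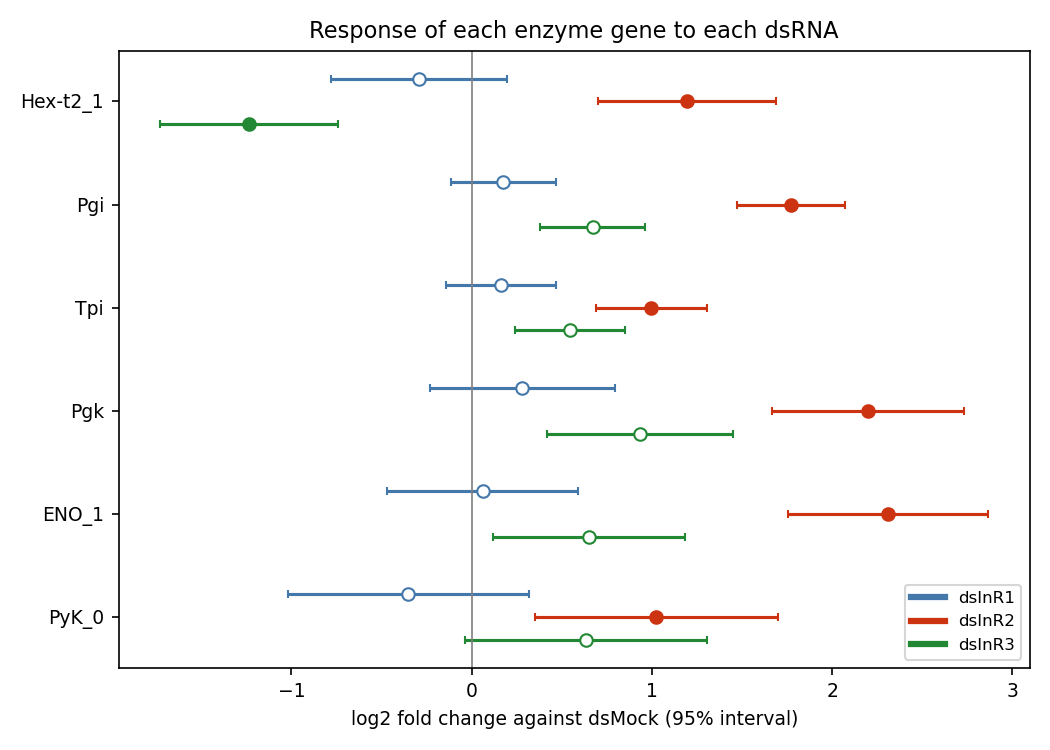
Fitted log2 fold change of each enzyme gene against dsMock, with its 95% interval. Filled points passed an adjusted p of 0.05 over all tested genes and open points did not. The 6 dsInR2 points are filled and lie between 0.997 and 2.31, and the filled dsInR3 point is Hex-t2_1 at -1.23.

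In dsInR1, the log2 fold changes against dsMock ran from -0.35 for PyK_0 (95% interval -1.02 to 0.32) to 0.28 for Pgk (-0.23 to 0.79). Hex-t2_1 had -0.29 (-0.78 to 0.20), Pgi 0.18 (-0.11 to 0.47), Tpi 0.16 (-0.14 to 0.47) and ENO_1 0.06 (-0.47 to 0.59). All 6 overlapped with dsMock between libraries, where 0.968% of all genes were clear upward and 1.28% downward, and all intervals held 0. The intervals leave room for a rise of up to 0.79 or a fall to -1.02 on the log2 scale, so the genes are not shown to be equal in both groups. Over the whole table edgeR called 0 genes in this comparison, with 347 at an unadjusted p below 0.05, none of them among the 6, and DESeq2 called 7 genes, none among the 6.

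Direct comparison of the receptor groups put dsInR2 above dsInR1 for all 6 genes, where 16.8% of all genes were called higher. The log2 differences ran from 0.84 for Tpi (SE 0.14, adjusted p = 5.7e-04) to 2.25 for ENO_1 (SE 0.26, adjusted p = 3.3e-05). Against dsInR3, 5 of the 6 were higher in dsInR2, where 11.6% of all genes were called higher. Hex-t2_1 differed most between these groups, by 2.43 (SE 0.24, adjusted p = 1.5e-05), followed by ENO_1 at 1.66 (adjusted p = 3.7e-04), Pgk at 1.27 (0.0017) and Pgi at 1.10 (8.5e-05). The difference for Tpi was 0.45 (adjusted p = 0.034) and was lost without any 1 of 5 libraries, those numbered 1 and 7 of dsInR2 and 5, 6 and 7 of dsInR3 (0.32 to 0.48, adjusted p = 0.0509 to 0.108). It was also lost under 3 of 8 other settings, namely upper quartile factors, no filter on low counts and a fit of the 2 groups alone (adjusted p up to 0.13). PyK_0 had a difference of 0.39 (95% interval -0.28 to 1.06, adjusted p = 0.406), which did not pass.

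Set directly against each other, dsInR1 and dsInR3 did not overlap for 5 of the 6 genes. Hex-t2_1 was above dsInR3 in all 4 dsInR1 libraries, and Pgi, Tpi, Pgk and PyK_0 were below it, where the libraries of 2.93% and 3.31% of all genes were clear of each other upward and downward. The log2 differences of dsInR1 minus dsInR3 were 0.94 for Hex-t2_1 (adjusted p = 0.274), -0.49 for Pgi (0.298), -0.38 for Tpi (0.45), -0.65 for Pgk (0.446), -0.59 for ENO_1 (0.484) and -0.99 for PyK_0 (0.367). In edgeR 0 genes of the whole table passed, with 970 at an unadjusted p below 0.05 (9.21% of all genes), all 6 enzymes among them. DESeq2 called 82 genes, Hex-t2_1 (0.0236) and Pgi (0.0408) among them.

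Ratios of reads between pairs of these genes within a library need no scaling between libraries. The pairs were chosen after the levels had been seen, so the ratios are a description. Exact two-sided permutation tests of the log2 ratios, adjusted over 28 tests, gave no adjusted p below 0.08. Hex-t2_1 over Pgi was 0.371, 0.32, 0.618 and 0.361 in dsInR3, against 1.17, 1.53, 1.25 and 2.17 in dsMock. The groups were clear of each other, with means of 0.417 ± 0.135 in dsInR3 and 1.53 ± 0.451 in dsMock (SD, n = 4 each), a log2 difference of -1.88. The second expressed hexokinase gene, Hex-t2_0 (C0J52_17436, hexokinase type 2, contig PYGN01001036.1 from 211726 to 244950), served as a further comparison. Hex-t2_1 over Hex-t2_0 was 0.328, 0.309, 0.306 and 0.355 in dsInR3, against 0.533, 0.999, 0.872 and 1.14 in dsMock, a log2 difference of -1.40. Hex-t2_0 itself had a log2 fold change of 0.20 in dsInR3 (95% interval -0.22 to 0.61, adjusted p = 0.703) and rose in dsInR2 by 1.35 (SE 0.20, adjusted p = 1.5e-04). Both carry the same product name, and how reads matching both were divided is not stated by the sources.

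For the last pair of steps, PyK_0 over ENO_1 was 3.01, 3.11, 3.18 and 2.04 in dsInR2, against 6.74, 5.19, 8.80 and 8.09 in dsMock. Means were 2.83 ± 0.535 in dsInR2 and 7.21 ± 1.59 in dsMock (SD, n = 4 each), with no overlap, a log2 difference of -1.34. In dsInR3 the same ratio averaged 7.26 ± 2.34, a log2 difference of -0.02 from dsMock. Tpi over Pgi was also lower in all 4 dsInR2 libraries, at 0.653 to 0.769, than in dsMock, at 1.24 to 1.32 (log2 difference -0.79).

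**Figure D3:**
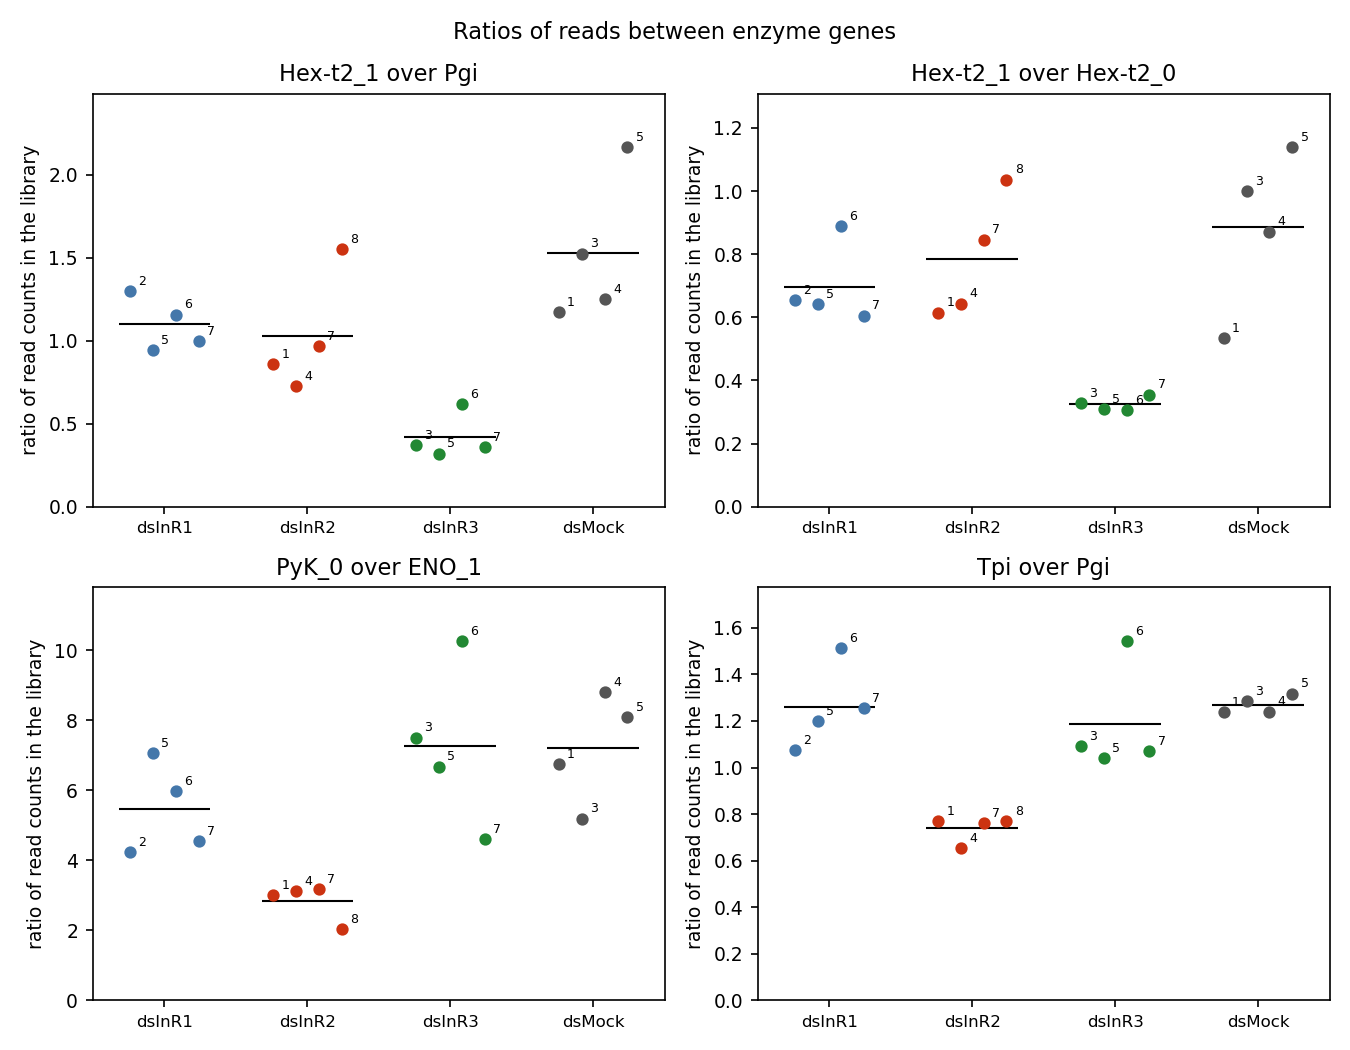
Ratio of the reads of Hex-t2_1 to those of Pgi and of Hex-t2_0, of PyK_0 to ENO_1 and of Tpi to Pgi in each library (points, with column numbers), with group means as bars. In dsInR3 the Hex-t2_1 ratios lie at 0.32 to 0.618 and 0.306 to 0.355, below all dsMock libraries, and in dsInR2 the ratios of PyK_0 to ENO_1 and of Tpi to Pgi do so, at 2.04 to 3.18 and 0.653 to 0.769.

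Besides the 6, 21 rows carry product names of glycolysis or its side reactions. Of these, 6 had 0 reads in all libraries (PyK_1, Pgm1, F26, LDHB, ldha and ENO_0), G3P had 3 reads and Gapdh_2 had 41 reads in all, and 13 were tested. In dsInR2, 8 of the 13 rose, 1 fell and 4 did not pass, where 17.6% of all genes were called higher and 14.7% lower. Their median change was 0.91, beside 0.04 over all genes. Among those that rose were genes for steps between the 6. Pfk, the phosphofructokinase that gates the pathway, rose by 1.44 (SE 0.30), at low levels of 8.13 ± 3.87 CPM in dsInR2 and 2.99 ± 0.357 CPM in dsMock. Glyceraldehyde-3-phosphate dehydrogenase rose in both expressed genes, Gapdh_0 by 1.73 (SE 0.25) and Gapdh_1 by 1.70 (SE 0.26). These neighbour each other on contig PYGN01000079.1, so how reads were split between them is uncertain. Phosphoglycerate mutase 1 (PGAM1), which hands its product to enolase, rose by 1.53 (SE 0.23), ADP-dependent glucokinase (Adpgk) by 0.96 (SE 0.15) and L-lactate dehydrogenase (ImpL3) by 0.91 (SE 0.20). Their adjusted p-values were 1.5e-04 to 0.0033.

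Enzymes around glycerol-3-phosphate, which links glycolysis to lipid synthesis, went different ways in dsInR2. Glycerol-3-phosphate dehydrogenase (Gpdh) fell by 0.68 (SE 0.24, adjusted p = 0.0426), and glycerol-3-phosphate phosphatase (PGP) rose by 0.52 (SE 0.18, adjusted p = 0.0362). Both calls were lost in 6 of the 8 fits that left out 1 library (adjusted p up to 0.106 for Gpdh and 0.103 for PGP), and in a fit of the 2 groups alone. The Gpdh call was also lost with no filter on low counts and with library totals as the scaling, where it was at -0.15. The 4 that did not pass were GPD2 at 0.46 (called without library 4 of dsInR2 and with library totals), Pgam2 at 0.27, PFKFB1, of the enzyme that sets fructose-2,6-bisphosphate, at -0.25 and PGM2 at -0.52. In dsInR3, 0 of the 13 passed in edgeR, where 0.199% of all genes were called higher and 0.104% lower. Their median was 0.33, with values from -0.34 to 0.78 and 5 at an unadjusted p below 0.05 (38.5%, beside 14.7% of all genes). DESeq2 called PGAM1 (0.0264) and Adpgk (0.0073) there.

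Gluconeogenesis runs against glycolysis through enzymes of its own, of which 3 are annotated with 4 genes. In dsInR2, pyruvate carboxylase (PC), which also refills the citric acid cycle, rose by 1.95 (SE 0.27, adjusted p = 9.1e-05), to 754 ± 356 CPM against 195 ± 30.7 CPM in dsMock. Fructose-1,6-bisphosphatase rose in both genes, FBP1_1 by 1.51 (SE 0.32, adjusted p = 0.002) and FBP1_0 by 1.54 (SE 0.34, adjusted p = 0.0026), which neighbour each other on contig PYGN01000005.1, so the split of reads between them is uncertain. Phosphoenolpyruvate carboxykinase (Pepck), the enzyme that draws oxaloacetate toward glucose, fell by 3.44 (SE 0.71, adjusted p = 0.0018), to 80.7 ± 38.2 CPM against 873 ± 719 CPM in dsMock, where libraries ranged from 265 to 1909 CPM. Without library 1 of dsMock its change was -2.77. In dsInR3, 0 of the 4 passed in edgeR, where 0.199% of all genes were called higher and 0.104% lower. Pepck had a log2 fold change of -2.20 there (95% interval -3.63 to -0.77, adjusted p = 0.134, and 0.0131 in DESeq2), PC 0.17, FBP1_0 -0.19 and FBP1_1 -0.32.

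**Figure D4:**
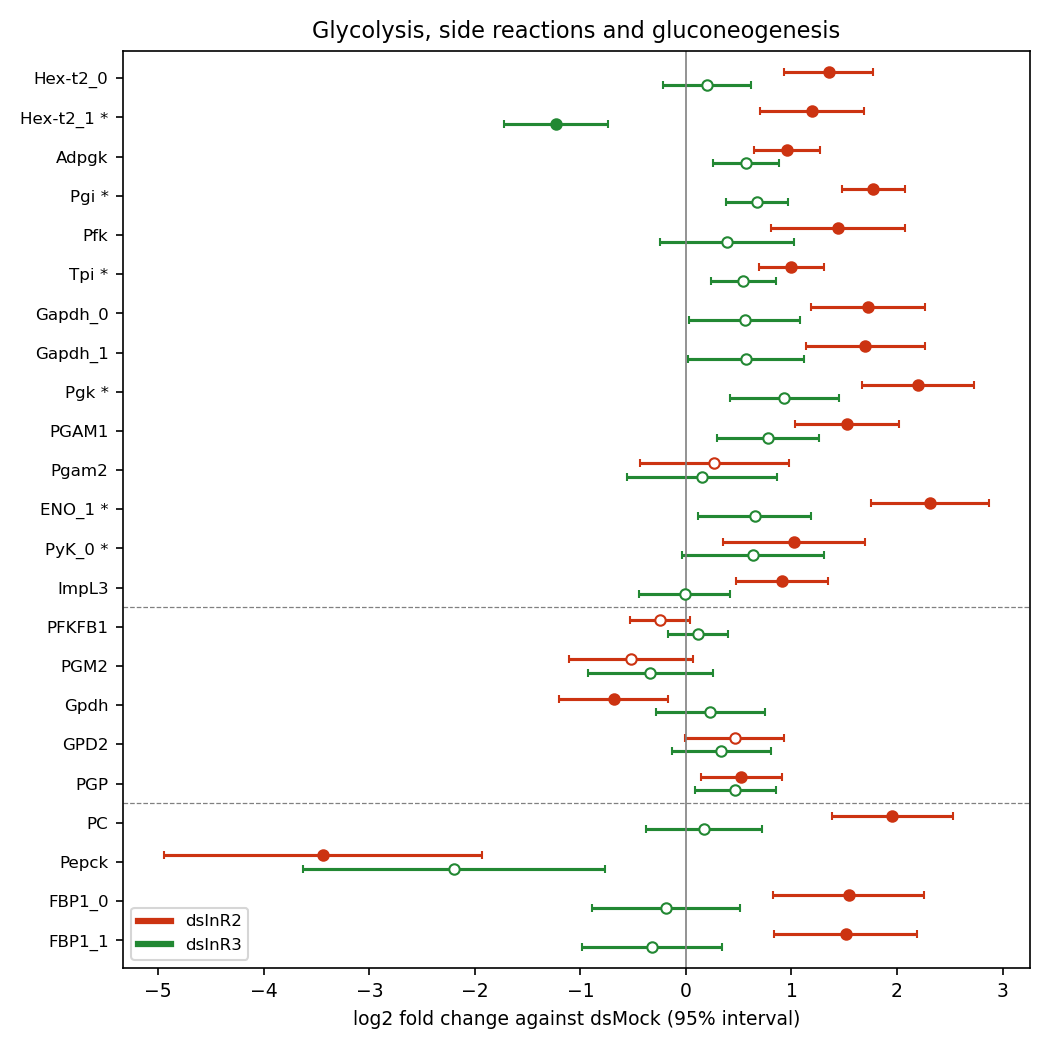
Fitted log2 fold change against dsMock with 95% interval for the tested genes of glycolysis in pathway order (top, the 6 enzymes marked with an asterisk), side reactions (middle) and gluconeogenesis (bottom). Filled points passed an adjusted p of 0.05. In dsInR2 the filled points of glycolysis lie between 0.91 and 2.31 and Pepck at -3.44, and in dsInR3 only Hex-t2_1 is filled.

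Muscle also uses these enzymes heavily, so markers of muscle and of other tissues were read in the same libraries. Of 20 muscle rows 18 were tested and 1 was at 0 in all libraries. Their summed level was 132 to 402 CPM in dsInR1, 249 to 603 CPM in dsInR2, 156 to 320 CPM in dsInR3 and 196 to 403 CPM in dsMock, and its groups overlapped. Myosin heavy chain, Mhc, had 69.7 to 188 CPM in dsInR2, against 50.8 to 111 CPM in dsMock. Library 8 of dsInR2 had the highest muscle sum, at 603 CPM, and with it the highest Hex-t2_1 and the lowest PyK_0 and ENO_1 of its group. Summed levels of 4 hemocyte rows were 141 to 395 CPM in dsInR2 and 136 to 206 CPM in dsInR3, against 196 to 230.2 CPM in dsMock. Nervous tissue markers (21 rows, 16 tested, 4 at 0) were at 109 to 114 CPM in dsInR2, below the 167 to 177 CPM of dsMock. Epidermis and trachea markers (45 rows, 3 tested, 29 at 0) were at 5.13 to 18.4 CPM in dsInR2 and 2.94 to 6.26 CPM in dsMock. Gut and Malpighian tubule markers (21 rows, 10 tested, 9 at 0) were at 568 to 706 CPM in dsInR2 and 635 to 898 CPM in dsMock. Ovary and germline markers (6 rows, 4 tested) were at 22.9 to 43.1 CPM in dsInR2 and 24.6 to 33.6 CPM in dsMock. The lists were drawn by product name alone, with syntaxin for nervous tissue and V-type proton ATPase subunits for gut and Malpighian tubule among the names searched. Whether fat body cells express the listed genes themselves was not tested, so a sum does not give the amount of a tissue. The part of these cell types in the enzyme levels was not tested. Leaving out library 8 of dsInR2, the 6 enzymes all still rose against dsMock. Library 7 of dsInR2, which stayed in that fit, had a muscle sum of 421 CPM, above the 403 CPM of the highest dsMock library. That fit is therefore no test of the part of muscle.

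The genes whose pattern was most like the mean of the 6 (each gene's log2 CPM standardised, Pearson's r over libraries, 2198 named candidates with at least 10 CPM) were ranked as a description. Over all 16 libraries, where the gap between dsInR2 and the rest weighs most, they included Galt (r = 0.978), transaldolase TALDO1 (0.973), tubulin alpha-1 C0J52_04588 (0.97) and the pyruvate dehydrogenase subunit gene PDHB_2 (0.965). Galt is annotated as galactose-1-phosphate uridylyltransferase, an enzyme of galactose metabolism. Over the 12 libraries other than dsInR2 they were TALDO1 (0.939), peroxiredoxin Jafrac1 (0.937), the transketolase-like TKTL1 (0.932), Trap1_0 (0.922) and CBS (0.917). In these 12 libraries Hex-t2_1 was negatively correlated with every other enzyme, from r = -0.85 with Pgi to -0.47 with PyK_0. There the mean is therefore not a pattern shared by all 6. TALDO1 stood in both sets. The libraries of a group share their treatment, so these values include the differences between groups.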

How the data were processed

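Whole-number read counts, deposited by the authors as a table of 16 libraries and used without change, gave all values. The submitters' processing notes name FastQC, Trimmomatic, HISAT2 and StringTie but no versions. The sources do not state how strand and reads matching several genes were handled. Another 32 columns of per-library values were not used, so levels are compared between libraries and not, per length, between genes. The locus tags of all 28676 genes were found in an annotation of Bger_1.1, the build of the table, which gave contigs and positions. Some product names stop at a comma, that of fructose-1,6-bisphosphatase among them, so this enzyme was found by its symbol.

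Counts were tested with edgeR 4.0.16 (R 4.3.3), by its two-sided quasi-likelihood test with TMM factors, filterByExpr (10536 genes kept) and 1 coefficient for each group, fitted to the 16 libraries together. Adjustment followed Benjamini-Hochberg across the tested genes (threshold 0.05), and p-values come from this test unless another is named. Levels are CPM after TMM scaling, and log2 fold changes are fitted values with standard error (SE). The level of Pgi and the log2 ratios of reads were tested by exact two-sided permutation. The fit was tested on simulated data. Alternatives were DESeq2 1.42.0, limma-voom (limma 3.58.1), other scalings and filters, fits of 2 groups, and leaving out each library. A chi-square of replicate pairs was at least 21.4 per degree of freedom, so no library was a copy of another.

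Named genes are the 6 enzymes, the other genes with product names of glycolysis that passed or stand at another step, those of gluconeogenesis and side branches, and the 5 most like the mean of the 6, of which 1 is not reported here. Members and lists were chosen with earlier results of these data known. Library sizes were 15.3 to 23.7 M reads, and the 6 genes had 761 to 42207 reads per library.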

Additional observations from a re-analysis of the deposited data

Results flagged for a closer look

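In 24 sets of 4 libraries (6 genes in 4 groups), 2 held a library far from the other 3 by Dixon's test at 95%, which chance alone would flag in about 1 of 20 sets. Both concern Pgk. Library 7 of dsInR1 was low, at 64.0 CPM, beside 86.2 to 88.1 CPM in the other dsInR1 libraries. Library 4 of dsMock was high, at 91.4 CPM, beside 55.3 to 60.6 CPM in the other dsMock libraries. The cause was not tested.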

How the results depend on the processing

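No paired analysis was possible because the columns carry library numbers that differ from the numbers in the titles, and no column could be tied to a numbered sample. The count of genes called in dsInR3 against dsMock, 32 in edgeR, moved with nearly every setting: 74 with upper quartile factors, 20 with library totals only, 17 with no filter, 88 with the stricter filter (1 CPM in 8 libraries), 53 with limma-voom, 444 with DESeq2, 12 in a fit of the 2 groups, and 0 to 147 without 1 library (3 without dsInR3 library 3, 0 without dsMock library 1, 147 without dsInR3 library 6). Of the 6 enzymes, 1 was called there, against 2 with RLE factors, upper quartile factors, the stricter filter or limma-voom, 4 with DESeq2, 0 with library totals, with no filter or in the fit of 2 groups, and 0 to 2 without 1 library. Where 2 were called, Pgi was called higher beside the lower Hex-t2_1. DESeq2 called 7 genes in dsInR1 against dsMock, and in dsInR1 against dsInR3 it called 82 genes and 2 of the enzymes, where leaving out 1 library in edgeR gave 0 to 1 genes. Library totals only moved the median of all genes by 0.57 in dsInR2 and 0.16 in dsInR3 against dsMock, and the calls in dsInR2 against dsMock to 4270 higher and 528 lower, beside 1851 and 1551 with TMM. In dsInR2 against dsInR1 that setting called 5361 genes (4917 higher and 444 lower), beside 3273. Among fold changes of the 6, the sign turned for ENO_1 in dsInR1 against dsMock, at -0.031 with library totals and -0.14 to 0.21 without 1 library. In dsInR2 against dsMock, 6 of 6 enzymes were called in 7 of 8 other settings, the fit of 2 groups leaving out PyK_0. The Pgi difference in log2 CPM was 0.14 to 0.26 in dsInR1 and 0.61 to 0.77 in dsInR3 against dsMock without 1 library, and its exact permutation p crossed the threshold in 1 and 3 of 8 such tests. The dsInR3 and dsMock libraries stayed clear of each other in all of these tests, where p was 0.0286 or 0.0571. With so few libraries the exact p moves in coarse steps. A comparison of levels per length was not run. The cause of these changes was not tested. The effect of depth was not tested.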

Other observations

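Pathways that branch off glycolysis were read with the same test. The pentose phosphate pathway, which makes NADPH and ribose from glucose-6-phosphate, rose in all 4 of its listed genes in dsInR2 against dsMock. Glucose-6-phosphate dehydrogenase, ZW, had 155 ± 101 CPM in dsInR2 and 18.1 ± 4.13 CPM in dsMock (log2 fold change 3.10, SE 0.45, adjusted p = 1.3e-04). TKTL1, annotated as a transketolase-like protein, had 781 ± 228 CPM in dsInR2 and 84.0 ± 21.4 CPM in dsMock (3.22, SE 0.28, adjusted p = 2.7e-06), and transaldolase, TALDO1, had 852 ± 250.1 CPM in dsInR2 and 174 ± 70.4 CPM in dsMock (2.29, SE 0.31). PGD, of 6-phosphogluconate dehydrogenase, rose by 1.80 (SE 0.26). In dsInR3, TKTL1 rose by 1.52 (SE 0.26, adjusted p = 0.0306), to 241 ± 62.0 CPM against 84.0 ± 21.4 CPM in dsMock, a call lost in 6 of the 8 fits that left out 1 library (adjusted p up to 0.14) and in a fit of the 2 groups alone (0.0693). ZW, TALDO1 and PGD had 1.05, 0.82 and 0.69 there and did not pass.

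Storage carbohydrate genes rose in both directions of the reaction in dsInR2. GlyP, of the glycogen phosphorylase that frees stored glucose, rose by 1.77 (SE 0.21), and the rows named glycogen synthase rose by 2.08 (GlyS_1, SE 0.36) and 1.96 (GlyS_0, SE 0.35). Library 1 of dsInR2 weighs on both, since without it they were at 1.47 and 1.35 and still passed. The gene tpsA, of trehalose-phosphate synthase, rose by 0.83 (SE 0.13), while the trehalases TREA_1 and TREA_2, which split trehalose, had -1.76 (adjusted p = 0.322) and -0.54 (adjusted p = 0.577). Single libraries decide both values: TREA_1 was at 1.31 without library 5 of dsMock and did not pass, and TREA_2 was at -2.23 without library 1 of dsInR2 and passed (adjusted p = 7.6e-04). Of 10 branch genes tested, 8 rose in dsInR2 and 1 rose in dsInR3, where 17.6% and 0.199% of all genes were called higher. Medians were 1.88 in dsInR2 and 0.68 in dsInR3, beside 0.04 and 0.00 over all genes.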
